A study of Mus musculus with 2 samples.

Results

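The nuclear genes of respiratory complex I were examined in ventricles of the embryonic mouse heart with and without Fendrr, a long non-coding RNA gene. The set was every gene in the deposited table whose symbol begins with Nduf, which gave 45 of 23276 genes. It holds 36 subunits of the complex, 7 assembly factors, and the related genes Ndufa4 and Ndufa4l2. All 45 had a mean of at least 1 FPKM (fragment counts corrected for the length of the transcript and the size of the library) over both libraries, the limit for a gene to be tested, which 11349 genes passed.

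The samples were wild-type (WT) ventricles and ventricles in which homologous recombination had removed Fendrr from both alleles (KO), all at embryonic stage E12.5 on a C57BL/6 x 129SV background. Embryos of both genotypes came from tetraploid complementation. Here the fetus grows from embryonic stem cells, and the tetraploid host cells contribute mainly to extraembryonic tissue. How many stem cell clones were used is not given in the sources used here. For each genotype, 4 ventricles were pooled into 1 strand-specific library of total RNA depleted of ribosomal RNA, so no difference below has a replicate check or a test, and the words "higher" and "lower" refer to these 2 libraries alone. The libraries were read on separate runs, and the bases of the WT run were called by hand after it stopped early, so genotype and run cannot be told apart.

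Complex I is the largest enzyme of the mitochondrial respiratory chain. It takes electrons from NADH, passes them along a flavin and a row of iron-sulphur clusters to ubiquinone, and pumps protons across the inner membrane. Its matrix arm has an N module, which oxidises NADH, and a Q module, which reduces ubiquinone. Its membrane arm has a proximal and a distal part around subunits encoded by mitochondrial DNA. The nuclear genome supplies the other core catalytic subunits, the supernumerary subunits around them, and assembly factors that leave the finished enzyme. The fetal heart relies strongly on glycolysis, and its mitochondria mature over the second part of gestation. The mitochondrially encoded subunits were not analysed here.

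The genotype labels could not be checked on the targeted gene, because the row under the older symbol of Fendrr, 1110050K14Rik, was listed at 0 in both libraries. Markers of ventricular muscle were abundant in both, with Myl2 at 9103 (WT) and 9478 FPKM (KO). The 10 cardiomyocyte markers summed to 20646 FPKM in WT against 21022 FPKM in KO, with 5 of 10 below the median log2 ratio of all genes. The 5 markers of cushion mesenchyme and fibroblasts summed to 405 and 502 FPKM, all of them above that median. The 5 atrial markers summed to 6750 (WT) and 5653 FPKM (KO), with 3 of them below it. These 3 made up nearly all of the sum, so it was not read as an amount of atrial tissue. The others were low and slightly higher in KO, with Sln at 2.79 (WT) and 3.27 FPKM (KO) and Nr2f2 at 1.55 and 1.82 FPKM. Of 4 liver markers, Alb was listed at 0 in both libraries and Afp was at 0.110 FPKM in WT against 16.6 FPKM in KO. The part of these differences in the results below was not tested, and in bulk tissue fewer cells of a type and less RNA per cell cannot be told apart. Ratios of low values put the mapped fragments of the KO library at 1.26 times those of the WT library, and the absolute depth is unknown.

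Most complex I genes were slightly lower in the KO library, and none was far apart. The ratio used is log2((KO + 1)/(WT + 1)) in FPKM. The median of the 45 genes was -0.24, against -0.11 for all 11349 genes tested, an offset of -0.13. This offset was -0.082 with quantile normalization, and -0.066 for the members at 20 to 500 FPKM against all genes of that range. As deposited, KO was below WT for 36 of 45 genes, against 67.0% of all genes. KO was below WT for 31 with the libraries rescaled by the median, the upper quartile or a trimmed mean, and 28 with quantile normalization. Those scalings put the median of all genes between -0.0071 and 0.0019, so about 50.0% of all genes were then lower. Relative to the median of all genes, which 50.0% of genes fall below by definition, 34 of 45 were lower. This count was 31 under the first 3 of these scalings and 27 under the last.

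No member differed 2-fold in either direction, a limit that 0.467% of all genes passed as higher and 0.388% as lower. At 1.5-fold, 4 members were lower (Ndufaf6, Ndufb6, Ndufv1 and Ndufb8), against 3.60% of all genes, and 1 was higher (Ndufa3), against 1.54%. Only Ndufaf6 stayed past the lower limit under each of the 4 other scalings, and it was inside it with a pseudocount of 5. The central 95% of all genes ran from -0.64 to 0.49, and 3 of the 45 lay outside it, with Ndufaf6 and Ndufb6 below and Ndufa3 above.

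**Figure D1:**
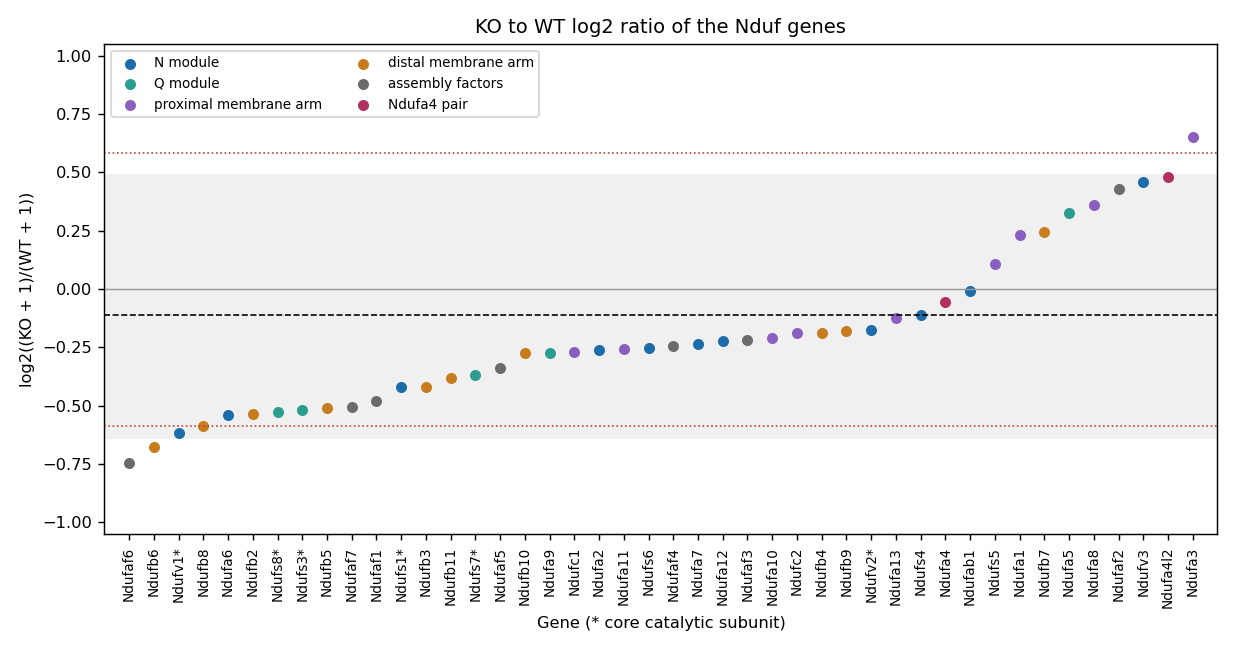
KO to WT log2 ratio of 44 Nduf genes on the deposited scale, ordered from lowest to highest, coloured by their place in the complex, with 1 point per gene. The dashed line is the median of all genes tested (-0.11), the grey band their central 95%, and the dotted lines mark 1.5-fold. Of the 44 genes, 35 lie below 0 and 9 above it, and some of the former reach 0 or change sign under another scaling.

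Abundant genes as a whole were lower in the KO library, which bears on how the set is read. The complex I genes are abundant: their median level lay at percentile 94.9 of all genes tested, and 31 of 45 were above percentile 90. Among all 424 genes with a mean from 100 to 500 FPKM the median log2 ratio was -0.19, and the 21 complex I genes in that range also had a median of -0.19. In the range of 50 to 100 FPKM the 10 members had a median of -0.26, against -0.17 for all 555 genes. The 6 members from 20 to 50 FPKM stood at -0.21, against -0.14, and the 8 members under 20 FPKM, of which 6 are assembly factors, at -0.30, against -0.094. Set against the genes at 20 to 500 FPKM, 24 of 37 members were below the median, a comparison chosen after seeing the data. By count, members below the median of their own range were 7 of 8 under 20 FPKM, 3 of 6 from 20 to 50 FPKM, 7 of 10 from 50 to 100 FPKM and 11 of 21 from 100 to 500 FPKM. From 100 FPKM up, and by count also from 20 to 50 FPKM, the members were thus placed much like other genes of their level.

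**Figure D2:**
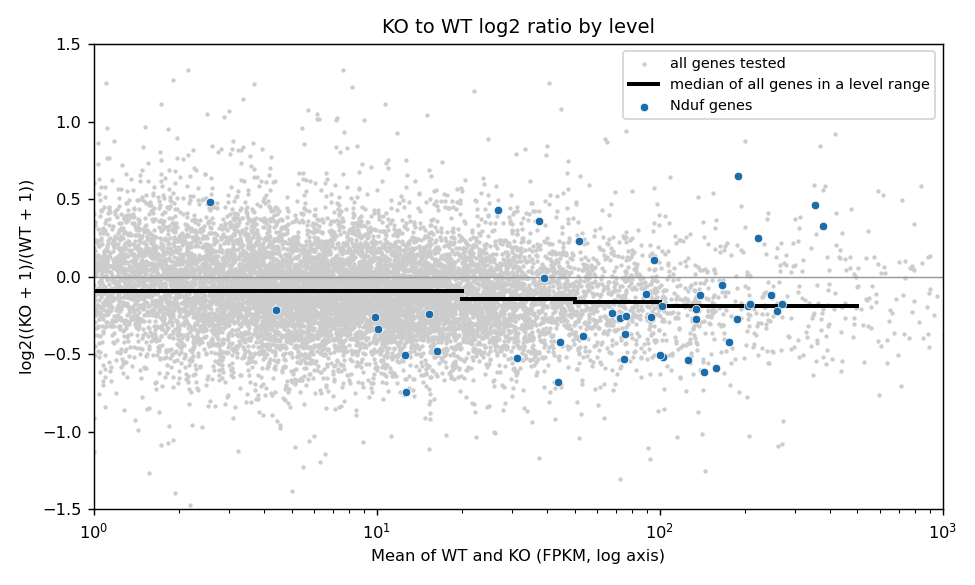
KO to WT log2 ratio against the mean level of both libraries in FPKM on a log axis, for all genes tested (grey) and the Nduf genes (blue), with 79 genes beyond the axis limits not shown. Black bars are medians of all genes in 4 level ranges, which run from -0.094 at 1 to 20 FPKM to -0.19 at 100 to 500 FPKM.

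Summed over the 45 genes, the level was 5253 (WT) and 4859 FPKM (KO). As a share of all FPKM in a library this was 1.43% in WT and 1.45% in KO. The most abundant members, Ndufa5 and Ndufv3, were both higher in KO. Without them the share was 1.26% in WT and 1.20% in KO. The total of all FPKM was itself lower in KO, at 335610 against 367955 in WT. The summed share was thus not lower over all 45 genes, but it was without Ndufa5 and Ndufv3.

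The 7 core catalytic subunits of the nuclear genome carry the flavin, the iron-sulphur clusters and the quinone site. All 7 were lower in KO as deposited, against 67.0% of all genes. Their median log2 ratio was -0.42, beside -0.19 for all genes at 100 to 500 FPKM, where most of the 7 lay. Under scaling by the median, the upper quartile or a trimmed mean 6 of 7 were lower, with medians from -0.30 to -0.29. With quantile normalization 5 were, with a median of -0.22. About 50.0% of all genes are lower under these scalings. At the entry point, Ndufv1, which binds NADH and the flavin, was at 173 FPKM in WT against 113 FPKM in KO (log2 ratio -0.62). Its partner Ndufv2, an iron-sulphur subunit, was at 220.4 and 195 FPKM (-0.18). Ndufs1, the largest subunit and the holder of several iron-sulphur clusters, was at 201 (WT) and 150.1 FPKM (KO) (-0.42). Of these N module subunits, Ndufv1 stood furthest from its WT level and Ndufv2 nearest.

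Some core subunits of the Q module were among the lower genes. Ndufs8, which carries a pair of iron-sulphur clusters, was at 37.0 FPKM in WT against 25.4 FPKM in KO (log2 ratio -0.53). Ndufs3 was at 121 and 84.2 FPKM (-0.52), and Ndufs7, whose cluster hands electrons to ubiquinone, was at 85.4 and 65.9 FPKM (-0.37). The genes named in this paragraph were lower in KO under each alternative scaling as well, which does not hold for every core subunit of the module.

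The 29 supernumerary subunits had a median log2 ratio of -0.22, with 22 lower in KO and 7 higher, beside 67.0% of all genes lower. In the N module, which has 11 genes in all, the stabilising subunits Ndufa2, Ndufa7, Ndufa12 and Ndufs6 lay between -0.26 and -0.22. Ndufa6 was further down, at 149 FPKM in WT against 103 FPKM in KO (-0.54). Ndufs4, whose loss causes a well-known mouse model of Leigh syndrome, was at 93.3 and 86.3 FPKM (-0.11), at the median of all genes. Ndufab1, the mitochondrial acyl carrier protein that occurs in both arms of the complex, was at 39.0 (WT) and 38.8 FPKM (KO). Ndufv3 was the exception in the module, at 297 FPKM in WT against 409 FPKM in KO (0.46). In the Q module Ndufa5 was the most abundant gene of the whole set, at 334 (WT) and 419 FPKM (KO) (0.33), and Ndufa9, which sits at the junction with the membrane arm, was lower, at 147 and 121 FPKM (-0.27).

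The parts of the membrane arm had different medians. In the distal part, 9 of 10 measured genes were lower in KO, against 67.0% of all genes, and the median log2 ratio was -0.40. Of the 9, Ndufb4 was slightly higher with quantile normalization. Ndufb6 was at 53.8 FPKM in WT against 33.3 FPKM in KO (-0.68), the lowest ratio of any subunit. Ndufb8, whose protein is often used as a marker of assembled complex I, was at 189.7 (WT) and 126 FPKM (KO) (-0.59), just past 1.5-fold. Ndufb2 was at 88.7 and 60.9 FPKM (-0.53), and Ndufb5 at 118 and 82.6 FPKM (-0.51). The abundant Ndufb9, at 287 FPKM in WT against 253 FPKM in KO, was nearer to its WT level (-0.18). Ndufb7 alone was higher among these 10, at 204 (WT) and 242 FPKM (KO) (0.25).

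In the proximal part, 5 of 9 genes were lower, against 67.0% of all genes, and the median was -0.12, at the level of all genes. Of the 5, Ndufa13 was slightly higher under each other scaling. Ndufa3, a small single-span membrane subunit, was at 147 FPKM in WT against 232 FPKM in KO (0.65), the highest ratio of the set. Ndufa8 was at 32.6 and 42.0 FPKM (0.36) and Ndufa1 at 47.6 and 56.0 FPKM (0.23). These subunits were higher in KO under each alternative scaling as well. The others, Ndufa10, Ndufa11, Ndufa13, Ndufc1 and Ndufc2, lay between -0.27 and -0.12. No test of the difference between the arm's parts is possible with these libraries.

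Ndufs5 was the remaining higher gene of the proximal part, at 91.6 (WT) and 98.7 FPKM (KO) (0.11), and its value is uncertain. A processed pseudogene, BC002163, shares 319 aligned nt with it at 99.4% identity and was at 41.5 FPKM in WT against 28.3 FPKM in KO. Their sum was 133 (WT) and 127 FPKM (KO), so on the deposited scale the direction turned when the pair was summed. The sum was not taken under the other scalings. Processed pseudogenes of at least 95% identity over 100 nt were found for 8 of the 45 members, and of these BC002163 alone had a row. For the other 7 (Ndufa12, Ndufab1, Ndufb3, Ndufb4, Ndufb11, Ndufs3 and Ndufs6), how reads were divided between gene and copy is not known. Counting matching transcripts of any type at the same limits, 13 members had one. Among them, Ndufb2, Ndufb8 and Ndufb9 had matches of 100% identity over 145, 134 and 202 nt, none with a row. How their reads were divided is not known either.

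**Figure D3:**
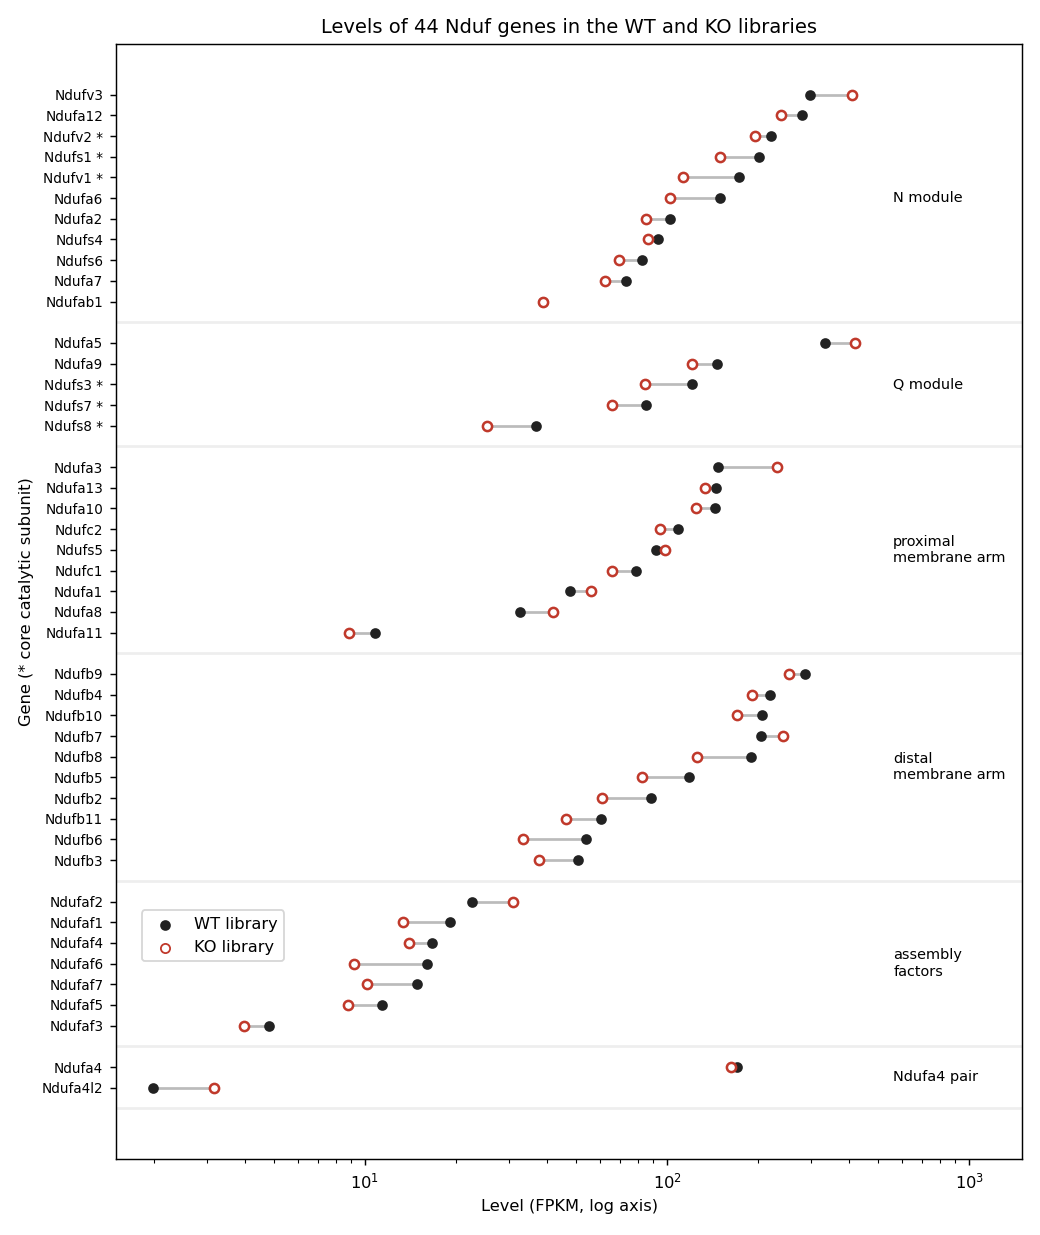
Level of 44 Nduf genes in FPKM on a log axis in the WT library (filled) and the KO library (open), grouped by place in the complex, with 1 value per library and no error. Subunits span from Ndufa11 at 10.8 FPKM to Ndufa5 at 334 FPKM in WT, and the order of genes is much the same in KO.

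Levels differed far more between genes than between libraries. Although nearly all subunits occur once in each complex, their transcripts ranged from 10.8 FPKM (Ndufa11) to 334 FPKM (Ndufa5) in WT, 30.8-fold, and from 8.89 to 419 FPKM in KO, 47.2-fold. After Ndufa5, the most abundant in WT were Ndufv3, Ndufb9 and Ndufa12 (279 FPKM). The lowest levels belonged to Ndufa4l2, Ndufaf3, Ndufa11, Ndufaf5 and Ndufaf7. Across the 45 genes log2(FPKM + 1) in the libraries had a Pearson correlation of 0.98 and Spearman's rho of 0.98, given as a description, since each gene's length and annotation are shared by both values.

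Assembly factors, which build the complex and are not part of it, were at low levels. The 7 with an Nduf symbol lay between 4.80 and 22.7 FPKM in WT, below every subunit there except Ndufa11. Of the 7, 6 were lower in KO, against 67.0% of all genes, and the median log2 ratio was -0.34. Ndufaf6, which acts early in assembly, was at 16.1 FPKM in WT against 9.19 FPKM in KO (-0.75), the lowest ratio of all 45. Ndufaf7, a mitochondrial methyltransferase, was at 14.9 and 10.2 FPKM (-0.51), and Ndufaf5, which hydroxylates Ndufs7, at 11.4 and 8.77 FPKM (-0.34).

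The other factors lay on both sides of 0. Ndufaf1, a part of the intermediate that assembles the membrane arm, was at 19.1 (WT) and 13.4 FPKM (KO) (-0.48). Ndufaf3 and Ndufaf4, partners in early assembly of the Q module, were at 4.80 and 3.99 FPKM (-0.22) and at 16.7 and 13.9 FPKM (-0.24). Ndufaf2, a late factor related to Ndufa12, was the exception, at 22.7 FPKM in WT against 30.9 FPKM in KO (0.43). Of the Nduf assembly genes, only Ndufaf2 was higher in KO, and it was so under each alternative as well.

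Of 9 listed assembly factors without the Nduf prefix, 8 had a row and 5 of these had a ratio under the all-gene median. Their median log2 ratio was -0.25. Foxred1 was lowest, at 20.1 (WT) and 12.51 FPKM (KO) (-0.64), followed by Acad9, an acyl-CoA dehydrogenase relative that serves in membrane arm assembly, at 14.1 and 8.81 FPKM (-0.62). These 2 of 8 were more than 1.5-fold lower as deposited, against 3.60% of all genes. With a pseudocount of 5 or any of the 4 other scalings, alternatives chosen after seeing the data, 0 of 8 were, with Foxred1 at -0.52 in each and Acad9 between -0.52 and -0.47.

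Ndufa4 and Ndufa4l2 carry the family's name, but Ndufa4 was reassigned to cytochrome c oxidase, and Ndufa4l2 is a hypoxia-induced relative. Ndufa4 was at 169.8 FPKM in WT against 163 FPKM in KO (-0.055), and its sign changed under each other scaling. Ndufa4l2 was at 1.99 (WT) and 3.16 FPKM (KO) (0.48), so that Ndufa4 exceeded it 85.5-fold in WT and 51.7-fold in KO. At this low level the pseudocount holds the ratio down, and with a pseudocount of 0.1 Ndufa4l2 passed 1.5-fold. Leaving out both genes moved the median of the set to -0.25.

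Members that were higher in KO had short transcripts, but short members were not higher as a group. The 12 members from 200 to 600 nt had a median log2 ratio of -0.21, against -0.17 for all 236 genes. The 15 members from 600 to 1000 nt had a median of -0.22, against -0.12 for all 798 genes. All 9 members that were higher in KO had a median annotated transcript length under 1000 nt, as did 18 of the 36 that were lower, and the median lengths of these groups were 617 and 1013 nt. Across the 45 genes, log2 length and log2 ratio had a Pearson correlation of -0.32 and Spearman's rho of -0.25, against 0.0097 and 0.10 across 11279 genes tested. Short transcripts scattered widely in general: of 236 genes from 200 to 600 nt, 14.4% were at least 1.5-fold lower and 7.63% at least 1.5-fold higher. Of the 12 members in that length range, 1 was lower (Ndufb6) and 1 was higher (Ndufa3) by this limit. A read-length filter may have been applied to the WT run alone, per the labels, and its part in these values was not tested.

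Promoter sequences of the members were searched for motifs that were chosen with the members' values known, so the counts below are a description. Windows from 250 bases before to 50 bases after the start were found for 39 of the 45 genes in RefSeq (GRCm38.p6), and 4 motifs of factors known for mitochondrial genes were searched on both strands. The NRF1 motif (GCGC, any base N and TGCGC in direct succession) occurred in 9 of 39 members (23.1%), against 12.1% of 8313 tested genes with a window and 4.60% of all 32851 windows. The YY1 motif AAGATGGC occurred in 7 of 39 (17.9%), against 5.55% of tested genes and 2.75% of windows. Its first base lay between 23 and 39 bases after the start, on the sense strand, in all 7. This motif holds the letters ATG, and its place relative to start codons was not examined. The ETS motif CCGGAAGT was found in 1 member, Ndufs3, against 9.59% of tested genes and 3.89% of windows, and the ERR motif TCAAGGTCA in 0 of 39, against 0.313% and 0.423%. Matches of different motifs did not overlap in any member, and a match is a description of the letters, not a binding site.

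Among the 9 members with the NRF1 motif, Ndufa5, Ndufa8 and Ndufs5 were higher in KO and the other 6 were lower as deposited. Among the 7 with the YY1 motif, Ndufa3 was higher and the other 6 were lower as deposited. In the whole set 36 of 45 were lower, and 67.0% of all genes were. With so few members per motif, neither split was read as a difference from these shares. To show the sequences, below are a lower and a higher gene for each motif, 5′ to 3′ on the gene's strand, with the motif in capitals. The windows are Ndufs7 at chr10:80249199-80249498 (plus strand), Ndufa3 at chr7:3617123-3617422 (plus), Ndufa6 at chr15:82354242-82354541 (minus) and the upstream start of Ndufa5 at chr6:24527641-24527940 (minus).
Ndufs7: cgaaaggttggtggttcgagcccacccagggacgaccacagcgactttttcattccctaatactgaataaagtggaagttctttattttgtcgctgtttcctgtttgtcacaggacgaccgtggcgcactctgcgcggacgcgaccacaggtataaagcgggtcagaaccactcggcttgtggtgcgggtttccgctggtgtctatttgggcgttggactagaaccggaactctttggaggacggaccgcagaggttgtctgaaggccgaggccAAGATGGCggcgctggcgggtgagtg
Ndufa3: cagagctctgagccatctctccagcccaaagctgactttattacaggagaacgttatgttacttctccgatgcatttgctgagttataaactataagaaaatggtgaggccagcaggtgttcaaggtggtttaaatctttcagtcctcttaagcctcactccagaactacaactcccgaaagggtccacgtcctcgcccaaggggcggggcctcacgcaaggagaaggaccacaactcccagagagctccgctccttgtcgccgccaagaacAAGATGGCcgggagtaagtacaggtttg
Ndufa6: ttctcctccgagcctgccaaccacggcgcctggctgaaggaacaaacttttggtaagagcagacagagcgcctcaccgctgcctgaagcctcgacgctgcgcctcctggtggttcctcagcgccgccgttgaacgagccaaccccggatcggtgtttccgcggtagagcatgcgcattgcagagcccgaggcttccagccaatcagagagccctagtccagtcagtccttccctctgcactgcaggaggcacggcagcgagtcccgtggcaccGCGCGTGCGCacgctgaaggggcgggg
Ndufa5: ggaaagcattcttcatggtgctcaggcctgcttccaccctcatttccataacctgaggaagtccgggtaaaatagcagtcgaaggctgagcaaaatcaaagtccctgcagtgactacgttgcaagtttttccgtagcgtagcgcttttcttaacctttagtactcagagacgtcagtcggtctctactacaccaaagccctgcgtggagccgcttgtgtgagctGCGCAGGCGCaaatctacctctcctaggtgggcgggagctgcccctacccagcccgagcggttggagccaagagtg
The YY1 motif starts 25 bases after the start in Ndufs7 (log2 ratio -0.37) and 23 bases after it in Ndufa3 (0.65). The NRF1 motif starts at base 24 in Ndufa6 (-0.54) and 26 bases before the start in Ndufa5 (0.33), where it lies on the opposite strand.

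Regulators of mitochondrial genes lay near the median of all genes as a list. Of 9 genes, 7 were lower in KO, against 67.0% of all genes, and 5 had a ratio under the all-gene median. Their median log2 ratio was -0.11, and none passed 1.5-fold. Esrra, a nuclear receptor that drives respiratory genes, was at 13.4 FPKM in WT against 9.22 FPKM in KO (-0.49), and Polrmt, the mitochondrial RNA polymerase, at 3.49 and 2.46 FPKM (-0.38). Nrf1 was at 13.3 and 12.3 FPKM, and the coactivator gene Ppargc1a at 9.81 and 10.7 FPKM.

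Other nuclear genes of the respiratory chain were read beside the 67.0% of all genes that were lower in KO. KO was below WT for 4 of 4 listed genes of complex II, 6 of 9 of complex III, 6 of 12 of complex IV and 13 of 15 of complex V, so that complex III was at the general share. The median log2 ratio was -0.35 over 4 genes of complex II, -0.32 over 9 of complex III, -0.021 over 12 of complex IV and -0.40 over 15 of complex V, beside -0.24 for the 36 subunits of complex I. Under the all-gene median lay 3 of 4, 6 of 9, 4 of 12 and 13 of 15 genes, beside 28 of 36. Sdhb, an iron-sulphur subunit of complex II, was at 205 (WT) and 133 FPKM (KO) (-0.62). Atp5k of complex V, at 124 and 355 FPKM (1.52), was the only gene of these lists past 2-fold. Whether complex I differs from these complexes was not tested, since the design has 1 library per genotype.

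**Figure D4:**
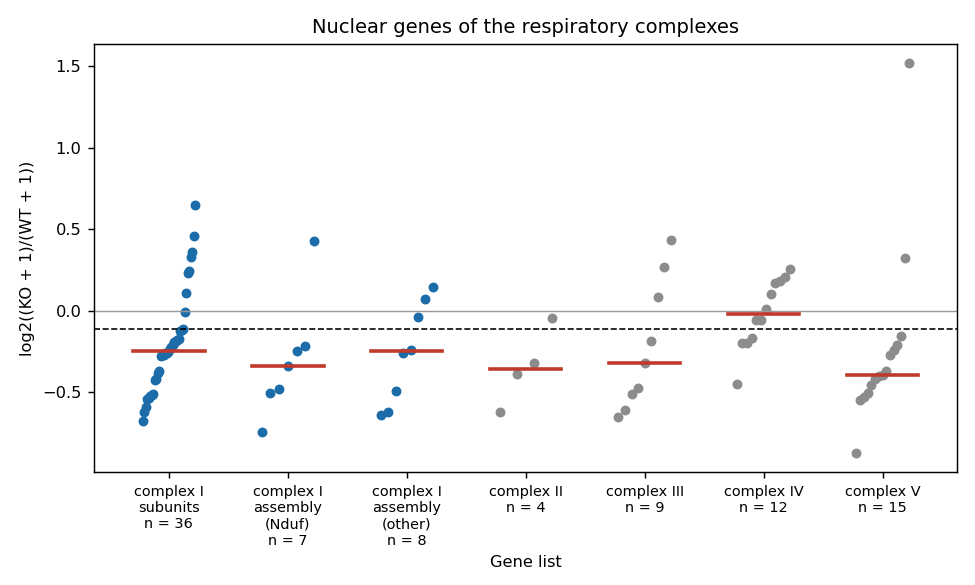
KO to WT log2 ratio on the deposited scale for nuclear genes of complex I (blue) and the other complexes (grey), with 1 point per gene, the list median in red and the median of all genes tested (-0.11) dashed. List medians are -0.24 for complex I subunits, -0.34 and -0.25 for assembly factors with and without an Nduf symbol, and -0.35, -0.32, -0.021 and -0.40 for complexes II to V.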

How the data were processed

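RNA of 4 pooled ventricles per genotype (500 ng) was depleted of ribosomal RNA and amplified by 15 PCR cycles, and 100 bases were read, per the labels' protocols. The authors deposited 1 FPKM value per gene symbol and library, made on mm9 with Cufflinks 2.0.2, Bowtie2 2.0.2 and TopHat2 2.0.6, per the submitters' processing notes. The options and gene annotation are not given in the sources used here.

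Ratios used a pseudocount of 1 FPKM and were taken for genes whose mean reached 1 FPKM. No p-value was computed. Relative depth came from 2213 genes with a mean under 0.3 FPKM, of which 69.1% had a ratio between libraries equal, to 0.1%, to a quotient of whole numbers not above 10 multiplied by 0.796. Lengths are medians over GENCODE mouse release 21 basic transcripts and were found for 99.4% of genes tested. Coordinates are given only for the promoter windows, on GRCm38.p6, while the deposited values were made on mm9. Copies were found with blastn 2.17.0. Python 3.11.15 with pandas 2.3.3 and numpy 2.4.6 was used. The fold calls and scalings were also run on simulated data with known folds, which checks the code and not the results above.

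The members, gene lists and alternatives were chosen with earlier results of these data known, and the motifs with the members' values known. Any member could be named. In full were to be named the core subunits, members past 1.5-fold, the 5 extremes of level and ratio, and the assembly factors, and up to 2 further genes per list. Other members, Nrf1, Ppargc1a, Atp5k, BC002163, Sln and Nr2f2 were named after their values were seen. The values of 1 member are counted in the summaries but not reported here by name. Mitochondrially encoded genes were not analysed here.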

Additional observations from a re-analysis of the deposited data

How the results depend on the processing

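No paired analysis was possible because WT and KO are 1 library each, which also means that leaving a library out was not an option. The median log2 ratio of the members, -0.24 as deposited, became -0.26 and -0.22 when the pseudocount was 0.1 and 5, -0.25 at a minimum mean of 5 FPKM (43 members) and -0.25 without Ndufa4 and Ndufa4l2. It was -0.12 with median centring, -0.12 with upper-quartile scaling, -0.13 with trimmed-mean scaling and -0.089 with quantile normalization, and -0.22 over the 37 members at 20 to 500 FPKM, which was chosen after seeing the data. The 1.5-fold counts were 1 higher and 4 lower as deposited, where 1.54% and 3.60% of all genes passed. At pseudocount 0.1, 2 were higher (2.88% of all genes) and 4 lower (6.13%). At pseudocount 5, 1 was higher (0.529%) and 2 lower (0.978%). With median centring and with upper-quartile scaling, 2 were higher (2.65% and 2.67%) and 1 lower (1.76% and 1.75%). With trimmed-mean scaling and with quantile normalization, 1 was higher (2.63% and 2.34%) and 1 lower (1.76% and 1.89%). No member passed 2-fold under any of these settings. Over 9 settings, 28 members were lower in each, 9 were higher in each, and 8 reached 0 or changed sign under at least 1 scaling, among them Ndufa10, Ndufa13, Ndufa4, Ndufab1, Ndufb4, Ndufs4 and Ndufv2. With unknown absolute depth, the counting error of single members cannot be given.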
